A study of Mus musculus with 12 samples.

Results

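RNA levels were compared between mouse embryonic fibroblasts lacking both Kdm5a and Rb1 (genotype Kdm5a-/-;Rb1-/-, here DKO) and wild-type fibroblasts (WT), each driven toward muscle and sequenced as the whole, mixed culture. There were 2 libraries of each genotype. Of the 36229 genes in the deposited table, 16544 had a mean normalised value of at least 10 over the 8 mixed-culture libraries and did not lie on the X or Y chromosome, and these are the genes described. A further 651 X-linked and 4 Y-linked genes passed the same minimum and were set aside. All cells were fibroblasts of strain C57BL/6 exposed for 24 h to an adenovirus carrying MyoD, with insulin (10 µg/ml) and little serum (2%, from horse), and kept for 72 h more in fresh medium without virus. RNA (1.7 µg) was depleted of ribosomal RNA and read in stretches of 40 bases. The other mixed cultures were Kdm5a-/- cells (Kdm5a KO) and Rb1-/- cells (Rb1 KO), with 2 libraries each; all 4 genotypes received the virus, so the controls carry it too. Myotubes purified by size from WT and DKO cultures gave 2 more libraries each. The labels do not say whether the libraries of a group came from separate embryos or cultures, so the p-values measure only the spread between these libraries, which may be technical. Nor do they say which exons either knockout lacks.

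MyoD is the transcription factor that can turn a fibroblast into a muscle cell. For this the cell must leave the cell cycle, switch on myogenin, fuse with its neighbours and build sarcomeres. The retinoblastoma protein, the product of Rb1, binds E2F transcription factors and holds genes of DNA synthesis and mitosis silent in cells that have left the cycle. KDM5A, also known as RBP2, removes methyl groups from lysine 4 of histone H3 and was found as a protein that binds the retinoblastoma protein. The series asks how fibroblasts lacking either gene or both perform the muscle programme.

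The targeted genes were read first. Kdm5a read 1637 and 1871 in WT, against 1319 and 1369.7 in DKO, so the DKO libraries lay below both WT libraries, and the gene fell by 0.38 on the log2 scale (limma adjusted p = 0.00146). Rb1 read 5616 and 5649.5 in WT, against 5309 and 5662 in DKO. The Rb1 libraries overlapped between WT and DKO and the change did not pass (-0.04 ± 0.051, adjusted p = 0.510). Both genes were higher in DKO than in the matching single knockout. Rb1 read 4457 and 4448 in Rb1 KO (DKO higher by 0.30 ± 0.051, limma adjusted p = 0.000345). Kdm5a read 1088 and 1192 in Kdm5a KO (DKO higher by 0.24 ± 0.084, limma adjusted p = 0.0237). These are totals over the whole gene, and both genes share exons with a neighbour in the annotation (Kdm5a with Ccdc77, Rb1 with Lpar6 and Rcbtb2). A transcript that lacks some exons would still be counted, so the Rb1 total does not check the label, and DKO below means the libraries labelled so. The related demethylase Kdm5b read 1878 and 2113 in WT, against 835 and 837 in DKO and fell (-1.25 ± 0.077, adjusted p = 1.72e-08). Changes here and below are differences of log2(normalised value + 1), ± the standard error of the fit, a scale that understates the change of genes with few reads. The words rise and fall are kept for genes whose limma p, adjusted over all genes tested, was under 0.05.

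The genotypes also differed in sex. Xist, the RNA that coats an inactive X chromosome, had no reads in either WT library and read 6933 and 6810 in the DKO libraries, whereas the Y-linked Ddx3y read 3319 and 3308 in WT and 0 in both DKO libraries. Every DKO against WT value below therefore also compares female with male cells, and the 2 differences cannot be told apart. The X-linked genes set aside had a median change of -0.08. Depth was 16458373 and 18469731 reads for WT and 31158818 and 41309134 for DKO. The 2 WT libraries differed by a median of 0.184 per gene on the absolute log2 scale and the 2 DKO libraries by 0.106. The mitochondrial ribosomal RNA gene mt-Rnr2 held 13.8 and 14.6% of WT reads and 13.9 and 12.4% of DKO reads.

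More genes differed between DKO and WT than did not. Of the 16544 genes, 11236 (67.9%) passed, 5631 (34%) as rises and 5605 (33.9%) as falls, and the median change over all of them was 0.00. Each library was scaled by a size factor, so the even split and the median of 0.00 depend on that scaling. They also depend on the minimum value. With a minimum of 50, 4529 genes rose and 5234 fell (median -0.08), and with no minimum 6539 rose and 5604 fell (median 0.18). The libraries of the 2 genotypes did not overlap for 13967 genes (84.4%). Large changes were mostly rises: 848 genes (5.13%) rose at least 8-fold and 135 (0.816%) fell at least 8-fold, against 3489 (21.1%) and 2280 (13.8%) at 2-fold. The share of a gene group that rose or fell is to be read against 34% and 33.9%. In a mixed culture, fewer cells of a type and less RNA per cell cannot be told apart. The plot of change against level shows that rises reach further from 0 than falls.

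**Figure D1:**
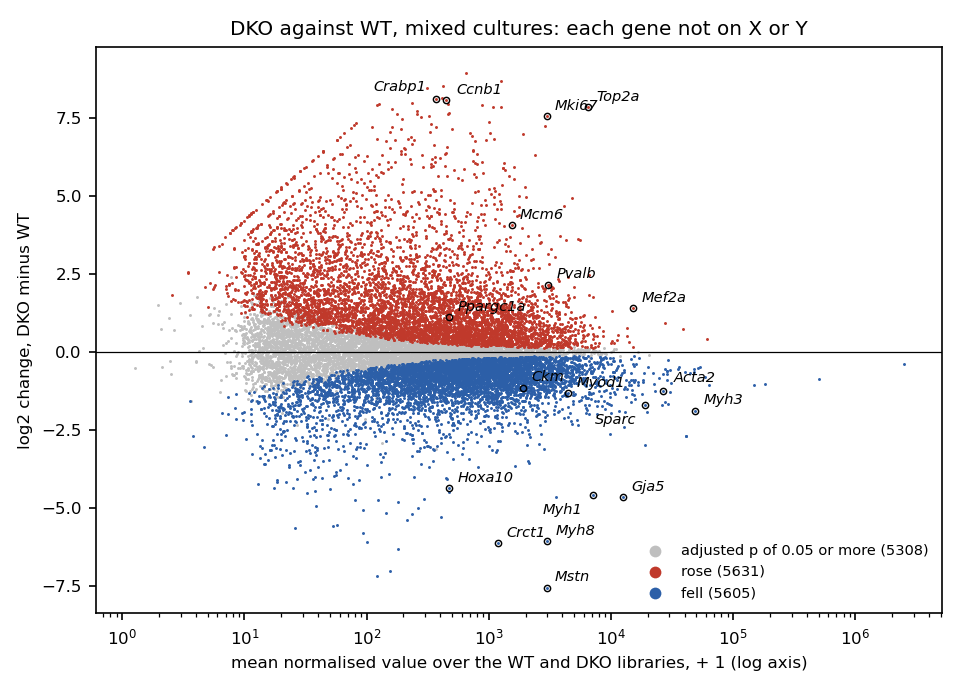
Change of each of the 16544 genes between DKO and WT (log2, vertical) against its mean normalised value over the 4 libraries plus 1 (horizontal, log axis). Each point is a gene, red where it rose (5631), blue where it fell (5605) and grey where the adjusted p was 0.05 or more (5308); the straight diagonal edge at upper left is formed by genes at or near 0 in WT.

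The replication machinery rose. All 54 measured genes of DNA replication rose, by a median of 3.45. Mcm6, a subunit of the helicase that opens the DNA ahead of the fork, read 165 and 179 in WT, against 2859 and 2925 in DKO (4.06 ± 0.095, adjusted p = 6.4e-12). Rrm1, the large subunit of ribonucleotide reductase, which supplies deoxynucleotides, read 799 and 810.1 in WT, against 10044 and 9792 in DKO (3.62 ± 0.079). For the checkpoint adaptor Clspn the WT libraries were near 0, at 7.18 and 9.59, and the DKO libraries read 2138 and 2191 (7.86 ± 0.20). Wdhd1, which links the helicase to the polymerase, went from 44.3 and 40.5 in WT to 2504 and 2674 in DKO (5.90 ± 0.12). In each of these 4 genes the lowest DKO library stood more than 10-fold above the highest WT library.

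Mitotic genes had the largest median change of the lists described. Of 76 measured G2/M and mitosis genes, 73 rose, 1 fell and 2 did not pass, with a median of 5.14. The proliferation antigen Mki67 read 44.3 and 20.3 in WT, against 5777 and 6061 in DKO (7.58 ± 0.43, adjusted p = 7.08e-09). Ccnb1, the mitotic cyclin that activates Cdk1, had no read in the first WT library and 9.59 in the second, against 893 and 876 in DKO (8.09 ± 0.77, adjusted p = 1.05e-06). Top2a, the topoisomerase that untangles chromosomes, read 46.7 and 65.0 in WT, against 12885 and 12913 in DKO (7.85 ± 0.14), and the S-phase and mitotic cyclin Ccna2 312 and 310.2 in WT, against 7955 and 7997 in DKO (4.68 ± 0.079). Both share exons with a neighbour, Gm23451 and Exosc9, and so are less certain. Ccnf (4.97), an F-box protein of G2, and the condensin subunit Ncapg2 (3.76) rose. The gene that fell, Ube2c, shares exons with the muscle troponin gene Tnnc2, and its values of 17934 and 17503 in WT are out of scale with the rest of the list. Among the 12 largest rises of all abundant genes (a group mean of at least 500), 11 are known from cell division or DNA repair: Esco2 (sister-chromatid cohesion), Dlgap5, Hmmr and Melk, the repressor E2f7, the repair glycosylase Neil3, Ccnb1, the centromeric histone Cenpa, the cohesin protector Sgo2a (which shares exons with Kctd18), Clspn and Top2a. The other, Crabp1, binds retinoic acid. Esco2 rested on 3 reads in WT against 5765 in DKO, a ratio of normalised levels of 769 with a 95% counting interval of 263 to 3731, and Crabp1 on 3 against 3208, a ratio of 428 with an interval of 146 to 2076.

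The regulators of these genes rose less evenly. Of 20 E2F factors, pocket proteins and MuvB subunits, 12 rose, 1 fell (2 without WT mixed replicate 2) and 7 did not pass. Among the E2F genes that activate transcription, E2f1 (1.11 ± 0.098), E2f2 (1.58 ± 0.11) and E2f3 (0.72 ± 0.076) rose, the repressor E2f7 read 0 and 4.26 in WT, against 806 and 884 in DKO (8.53 ± 0.58), and E2f4, the partner of the other pocket proteins, did not pass (-0.01 ± 0.12, adjusted p = 0.950). Of those other pocket proteins, Rbl1 (p107) rose from 219 and 181 in WT to 1521 and 1487 in DKO (2.91 ± 0.11), while Rbl2 (p130), which shares exons with Aktip, fell (-0.64 ± 0.084). Mybl1, a Myb factor, went from 27.5 and 48.0 in WT to 5752 and 5639.6 in DKO (7.25 ± 0.20). Among 13 G1 cyclins and kinases, 9 rose and 2 fell. The cyclin E genes, which drive entry into S phase, rose: Ccne1 read 568 and 496 in WT, against 6886 and 7263 in DKO (3.73 ± 0.11), and Ccne2, which shares exons with Ints8, 336 and 274 in WT, against 9252 and 9475 in DKO (4.94 ± 0.10). Ccnd2 (-1.36 ± 0.085) and Ccnd3 (-0.80 ± 0.075), which encode cyclins of the D type, fell. E2f1 to E2f4 were picked from the list after their values were seen, to show the family.

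The inhibitors that normally hold muscle cells out of the cycle stayed abundant. Cdkn1a (p21) read 42322 and 42279.8 in WT, against 29819.5 and 28104 in DKO and fell modestly (-0.55 ± 0.046, adjusted p = 3.16e-07). Cdkn1c (p57) read 32948 and 32878 in WT, against 20110.1 and 19710.2 in DKO (-0.73 ± 0.044). Of 7 CDK inhibitor genes measured, 4 rose and 3 fell, and Cdkn2c (p18) had the smallest p, rising from 376 and 405 in WT to 2195 and 2165 in DKO (2.48 ± 0.079). Of 32 p53 targets and apoptosis genes 24 rose and 5 fell, 3 without DKO mixed replicate 2 (median 1.39). They included the killer proteins Pmaip1 (Noxa, 1887 and 1860.1 in WT, against 8101 and 7890.2 in DKO, 2.09 ± 0.063) and Bcl2l11 (Bim, 2.87 ± 0.091), and Mdm2, the ligase that degrades p53 (1.76 ± 0.065). Gadd45a, which shares exons with E230016M11Rik, fell (-0.60 ± 0.078), as did the survival gene Bcl2l1 (-0.37 ± 0.064).

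Most repair, histone and polycomb genes rose as well. Of 31 homologous recombination and Fanconi genes, 28 rose and 1, Xrcc3, fell (median 2.02). The rises included Brip1 (5.05 ± 0.16) and Bard1 (4.17 ± 0.12). With the 14 members that share exons removed before the fit, 16 rose and Xrcc3, which overlaps Klc1, was no longer among those tested. Of 25 replication-dependent histone genes, 22 rose and 2 fell (median 2.92), and the linker histone Hist1h1a went from 71.8 and 109.8 in WT to 1817 and 1557 in DKO (4.23 ± 0.20). Of 21 polycomb and DNA methylation genes, 14 rose and 4 fell. Ezh2, the methyltransferase of lysine 27 of histone H3, read 421 and 417 in WT, against 3943 and 4313 in DKO (3.30 ± 0.086), whereas its relative Ezh1 fell (-0.78 ± 0.13). Of 18 KDM5 and other H3K4 enzymes, 6 rose and 4 fell, against 34% and 33.9% of all genes.

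Promoter letters of the genes that rose and fell are shown because the factors named above bind short words. The windows are the 250 bases before each start in RefSeq (GRCm38.p6), searched on both strands for the E2F words TTTCCCGC and TTTGGCGC, the CHR word TTTGAA found at G2/M genes, and the E-box CAGCTG bound by MyoD and myogenin. No match of a word overlaps a match of another in the windows printed, and a gene can have several promoters. Among 52 promoters of the DNA replication genes that rose (43 of 54 genes had an entry), 5 (9.62%) held an E2F word, against 427 of all 32851 promoters (1.30%) and 0 of 97 promoters of genes that fell in 6 muscle lists (71 of 93 contractile, calcium, junction and energy genes had an entry). Among 66 promoters of the G2/M genes that rose (61 of 73 had an entry), 25 (37.9%) held the CHR word, against 16.0% of all. Among the 97 promoters of the muscle genes that fell, 42 (43.3%) held the E-box, against 13.0% of all. These are counts of letters in windows from a later genome build than the one the reads were aligned to, and no binding was measured. Members of these lists without the call named were not counted, so the shares cannot link a word to the direction of change. The promoters of Mcm6 (chr1:128359706-128359955, minus strand), Mki67 (chr7:135716380-135716629, minus strand), the creatine kinase gene Ckm (chr7:19410844-19411093, plus strand) and the embryonic acetylcholine receptor subunit Chrng (chr1:87205561-87205810, plus strand) follow 5′ to 3′, with E2F words in capitals for Mcm6 (starting 110 and 47 bases before the start), CHR words for Mki67 (116 and 98 bases before) and E-boxes for Ckm (249 bases before) and Chrng (155 and 132 bases before).
Mcm6: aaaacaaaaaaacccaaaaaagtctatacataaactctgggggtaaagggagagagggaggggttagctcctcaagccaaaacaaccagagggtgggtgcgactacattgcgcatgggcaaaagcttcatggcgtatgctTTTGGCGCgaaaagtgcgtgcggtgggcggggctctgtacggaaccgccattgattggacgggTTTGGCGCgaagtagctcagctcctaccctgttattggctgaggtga
Mki67: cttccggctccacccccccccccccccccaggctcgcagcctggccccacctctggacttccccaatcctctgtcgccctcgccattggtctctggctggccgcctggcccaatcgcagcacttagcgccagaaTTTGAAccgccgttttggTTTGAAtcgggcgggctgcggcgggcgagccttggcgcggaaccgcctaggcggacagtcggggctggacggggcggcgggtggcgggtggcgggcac
Ckm: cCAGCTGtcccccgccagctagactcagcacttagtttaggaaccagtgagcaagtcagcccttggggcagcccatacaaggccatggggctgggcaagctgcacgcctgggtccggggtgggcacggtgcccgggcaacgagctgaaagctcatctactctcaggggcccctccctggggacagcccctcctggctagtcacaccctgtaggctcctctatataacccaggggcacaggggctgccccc
Chrng: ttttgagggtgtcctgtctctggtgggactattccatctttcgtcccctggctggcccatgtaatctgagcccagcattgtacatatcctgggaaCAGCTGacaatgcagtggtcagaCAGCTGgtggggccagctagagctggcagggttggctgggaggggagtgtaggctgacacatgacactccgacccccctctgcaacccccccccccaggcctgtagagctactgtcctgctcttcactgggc

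**Figure D2:**
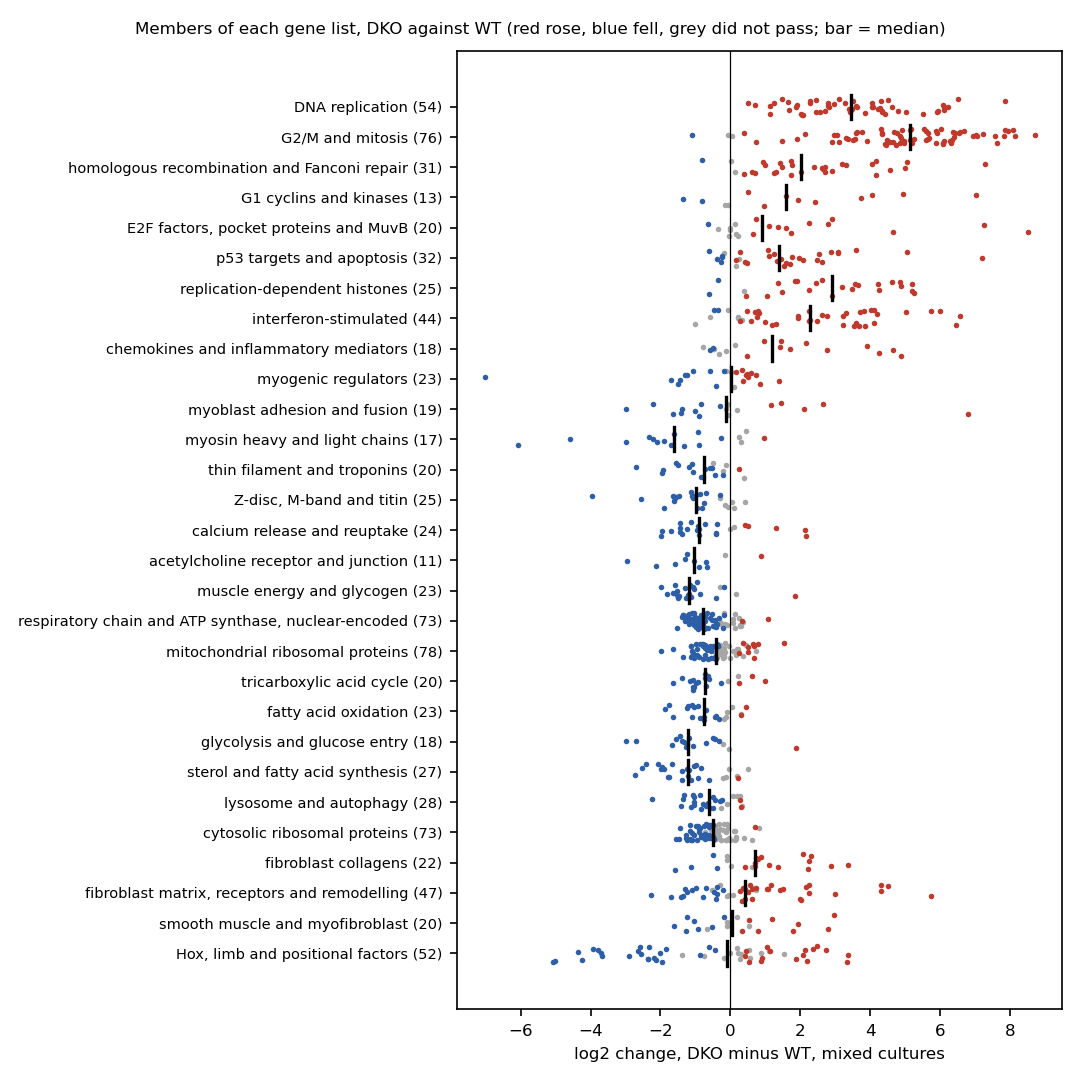
Change between DKO and WT (log2, horizontal) of every measured member of 29 gene lists (rows, number measured in brackets). Points are genes, red where they rose, blue where they fell and grey where they did not pass, and the black bar is the list's median, which runs from 5.14 for G2/M and mitosis to -1.61 for the myosins.

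Structural genes of muscle were lower in DKO but present, and the regulators changed in both directions. Myod1, which also counts reads of the virus if its transcript matches the mouse gene, read 5852 and 6886 in WT, against 2502 and 2611 in DKO (-1.31 ± 0.093, adjusted p = 6.29e-08), and what part came from the virus was not tested. The factor that starts terminal differentiation, myogenin, fell: Myog read 16127 and 18252 in WT, against 13308 and 12735 in DKO (-0.40 ± 0.057, adjusted p = 4.22e-05). Of 23 myogenic regulators, 10 rose and 10 fell, and their median change was 0.01. Within the MEF2 family, which works with MyoD on muscle promoters, Mef2c fell from 14872 and 15866 in WT to 4603 and 4824 in DKO (-1.70 ± 0.057) while Mef2a, which shares exons with Lysmd4, rose from 8735 and 8097 in WT to 21028 and 23172 in DKO (1.39 ± 0.056). Ankrd1 (-1.49 ± 0.069) and Smyd1, a muscle methyltransferase needed for thick filaments (-1.07 ± 0.071), fell. Myf6 (MRF4), named here after its values were seen, read 235 and 374 in WT, against 0.526 and 2.37 in DKO. Of 20 inhibitors of the muscle programme, 13 rose and 4 fell. The Notch receptors Notch3 (51.4 and 46.9 in WT, 407 and 374 in DKO, 2.96 ± 0.15) and Notch1 (1.28 ± 0.080) rose, and Id1, which binds the partners of MyoD, fell (-1.32 ± 0.088). Mstn (myostatin), the secreted brake on muscle growth, showed the largest fall of all abundant genes, from 4785 and 7038 in WT to 28.9 and 30.4 in DKO (-7.56 ± 0.20, adjusted p = 1.2e-11).

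The 2 membrane proteins that make myoblasts fuse moved in opposite directions. Mymk (myomaker) fell from 11839 and 12358 in WT to 4504 and 4597 in DKO (-1.41 ± 0.051, adjusted p = 1.43e-10). Mymx (myomixer), named here after its values were seen, rose from 779 and 738 in WT to 2166 and 1994 in DKO (1.45 ± 0.082). Of 19 adhesion and fusion genes, 5 rose and 9 fell. The adhesion proteins Jam2 (-2.21 ± 0.066) and Cdh15 (M-cadherin, -1.65 ± 0.059) fell, and Dock1, which drives the actin changes of fusion, rose from 656 and 754 in WT to 2934 and 3183 in DKO (2.12 ± 0.076).

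Most contractile genes fell. Of 17 myosin heavy and light chain genes, 13 fell and 1 rose (median -1.61); the rise, Mylk2, rested on few reads and was lost without WT mixed replicate 2 (adjusted p = 0.134) or either DKO library (0.143 and 0.0956). The embryonic myosin Myh3 read 77084 and 76912 in WT, against 20397 and 21204 in DKO (-1.89 ± 0.051, adjusted p = 1.56e-11), a 3.70-fold drop. The perinatal myosin Myh8 dropped from 5433 and 6317 in WT to 85.2 and 85.7 in DKO (-6.08 ± 0.22) and the adult fast myosin Myh1 from 13805 and 13381 in WT to 559 and 568 in DKO (-4.59 ± 0.064). Per kilobase of exon, the normalised level was 12712 for Myh3, 2139.6 for Myh1 and 499 for Myh8 in WT, and 3434, 88.7 and 7.26 in DKO, so Myh3 led in both. Myosin heavy chain genes are alike in sequence and Myh1 shares exons with Myhas, so the split between them is uncertain. Without the 5 myosins that share exons, 8 of the list fell and the median was -1.10. Of 20 thin filament and troponin genes, 15 fell and 1 rose: cardiac actin Actc1 went from 66859.5 and 74744 in WT to 11398 and 10372 in DKO (-2.70 ± 0.089), and the slow and cardiac troponins Tnni1 (-1.93 ± 0.049) and Tnnt2 (-1.94 ± 0.047) fell; the rise did not pass without WT mixed replicate 2 or without either DKO library. Of 25 Z-disc, M-band and titin genes, 19 fell and 6 did not pass. Those that fell included Des (desmin, which shares exons with Gm15179), from 21741 and 22174 in WT to 7155 and 7299 in DKO (-1.60 ± 0.051), Actn2 (-1.90 ± 0.086) and Actn3 (-1.59 ± 0.049).

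Membrane, calcium and energy genes of muscle followed. Of 24 calcium release and reuptake genes, 17 fell and 5 rose (median -0.90). Casq2, which stores calcium, fell from 15672 and 15990.3 in WT to 4189.8 and 3954 in DKO (-1.96 ± 0.060), and Srl (sarcalumenin) from 39976 and 40049 in WT to 12386 and 12368 in DKO (-1.69 ± 0.055). Of 11 acetylcholine receptor and junction genes, 9 fell and 1 rose, the rise not without DKO mixed replicate 1: Musk, the kinase that clusters receptors, went from 4442 and 4721 in WT to 575 and 604 in DKO (-2.95 ± 0.090), its partner Lrp4 from 3344 and 3062 in WT to 674 and 791 in DKO (-2.13 ± 0.084), and Chrng, whose promoter is printed above, from 14014 and 12123 in WT to 4318 and 4352 in DKO (-1.59 ± 0.068). Of 23 muscle energy and glycogen genes, 20 fell and 1 rose (median -1.20). Ckm read 2827 and 2456 in WT, against 1213 and 1167 in DKO (-1.15 ± 0.14, adjusted p = 9.74e-06), although Ckm shares exons with A930016O22Rik. Pygm, which breaks down glycogen, fell from 8392 and 8414 in WT to 2946 and 2878 in DKO (-1.53 ± 0.053), and Eno3, the muscle enolase, by 1.07. With members that share exons removed, 10 of 13 energy genes fell.

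A few muscle genes and some mitochondrial regulators stood above WT. Pvalb (parvalbumin), a calcium buffer of fast fibres, read 1202 and 1024 in WT, against 4990.4 and 4919 in DKO (2.16 ± 0.076, adjusted p = 1.19e-10), and Sln (sarcolipin), which slows the calcium pump, 267 and 244 in WT, against 1133 and 1138 in DKO (2.15 ± 0.18). Cox7a1, the muscle form of a cytochrome oxidase subunit, rose from a low level (16.8 and 25.6 in WT, 69.4 and 84.9 in DKO, 1.84 ± 0.38). Ppargc1a (PGC-1 alpha), a coactivator of mitochondrial genes, rose from 345 and 257 in WT to 669 and 614 in DKO (1.10 ± 0.15, adjusted p = 3.32e-05), its partner receptor Esrrg from 191 and 183 in WT to 841 and 839.9 in DKO (2.16 ± 0.15) and Tfam, which packs and transcribes mitochondrial DNA, from 409 and 545 in WT to 1299 and 1305 in DKO (1.46 ± 0.12). For each of these 6 genes both DKO libraries lay above both WT libraries. That does not set them apart, since the 2 genotypes did not overlap for 84.4% of all genes.

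**Figure D3:**
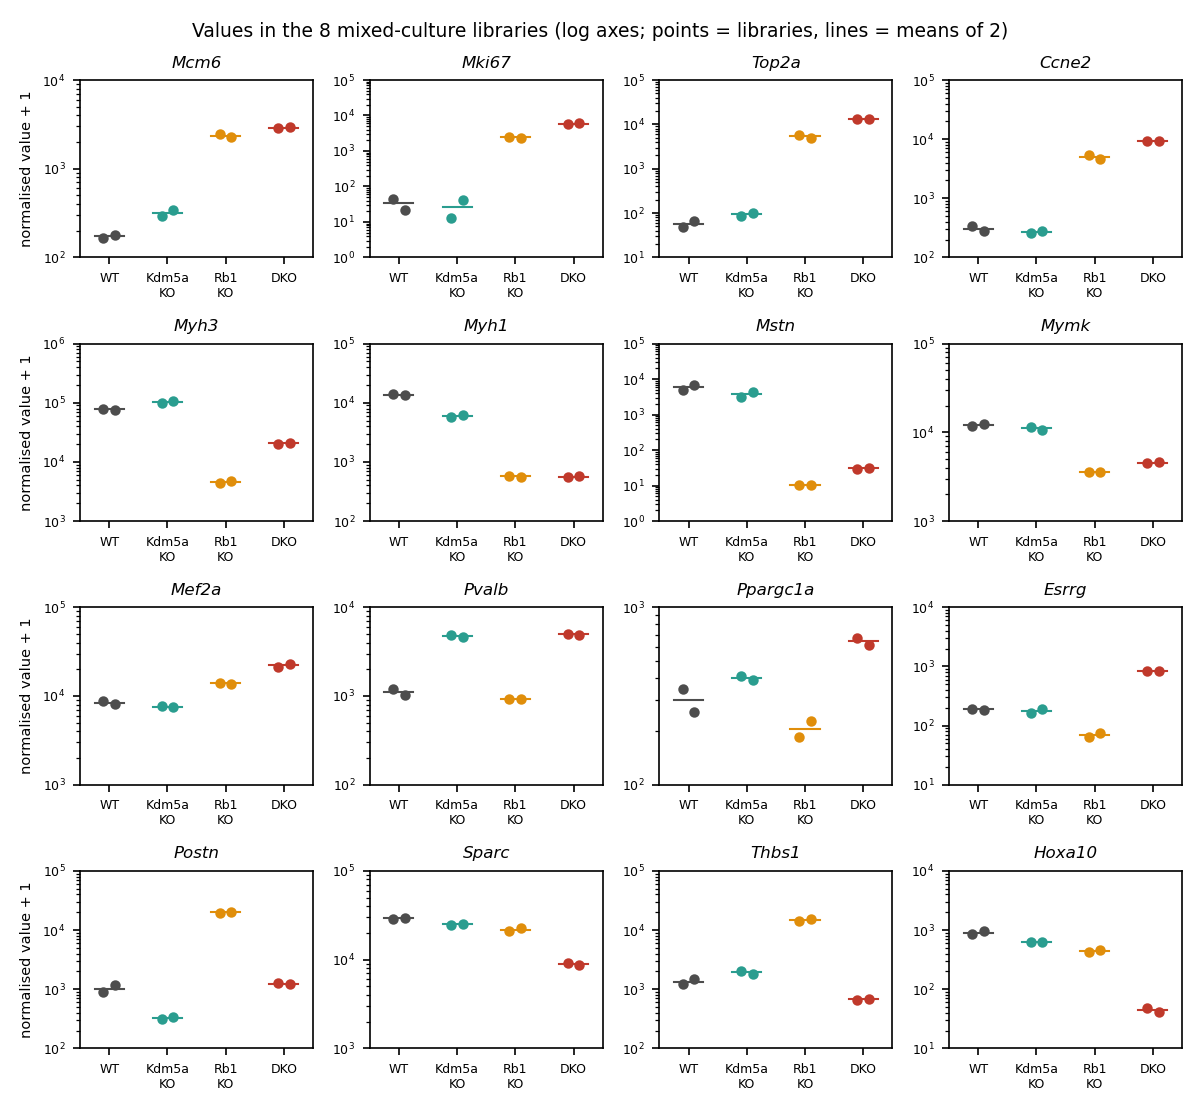
Normalised value plus 1 (log axes) of 16 genes in each mixed-culture library; points are libraries, lines are means of 2. The cell-cycle genes of the top row are low in WT and Kdm5a KO and high in Rb1 KO and DKO, Pvalb is high in Kdm5a KO and DKO, and Postn and Thbs1 are high in Rb1 KO alone.

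The nuclear genes of the respiratory chain went the other way from those 3 mitochondrial regulators. Of 73 respiratory chain and ATP synthase genes, 55 fell and 2 rose (median -0.79). Atp5b, the catalytic subunit of ATP synthase, read 17535 and 17708 in WT, against 7808 and 7743 in DKO (-1.18 ± 0.044), the complex III subunit Uqcrc1 3979 and 4090.1 in WT, against 1754 and 1763 in DKO (-1.20 ± 0.056) and the complex I subunit Ndufa9 2599 and 2897 in WT, against 1074 and 1015 in DKO (-1.39 ± 0.070). Of 20 tricarboxylic acid cycle genes, 15 fell and 3 rose, with Got1 down by 1.65 and Idh2 up (0.61 ± 0.068). Of 23 fatty acid oxidation genes, 16 fell and 2 rose, Lpl (lipoprotein lipase) falling from 2885 and 3194 in WT to 1247 and 1337 in DKO (-1.23 ± 0.082). The 2 rises, Etfa and Hadhb, both failed to pass without WT mixed replicate 2 (adjusted p = 0.0910 and 0.172) and without DKO mixed replicate 2 (0.108 and 0.194), and Hadhb also without DKO mixed replicate 1 (0.0532). Of 78 mitochondrial ribosomal proteins, 41 fell and 9 rose, the rises being 5 without DKO mixed replicate 1, and with genes that share exons removed 27 fell. In the list of mitochondrial biogenesis and dynamics 7 of 26 rose and 10 fell. Esrrb (550.4 and 369 in WT, 9.47 and 13.4 in DKO, -5.20 ± 0.27) and the mitophagy gene Pink1 (-2.11 ± 0.11) fell, in contrast to Esrrg.

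Glucose and lipid genes fell as well. Of 18 genes of glycolysis and glucose entry, 15 fell and 1 rose (median -1.20). The liver-type phosphofructokinase Pfkl went from 1414 and 1586 in WT to 242 and 219 in DKO (-2.70 ± 0.087). Hk2, the hexokinase of muscle, went from 1816 and 1858 in WT to 577 and 567 in DKO (-1.68 ± 0.076). Pdk1 went from 808 and 1173 in WT to 136 and 109 in DKO (-2.99 ± 0.16). Of 27 sterol and fatty acid synthesis genes, 21 fell (median -1.20), with Mvd, a step of the mevalonate pathway, at 799 and 879 in WT, against 125 and 126 in DKO (-2.73 ± 0.12) and the desaturase Scd1 at 9816 and 9650.0 in WT, against 2808 and 2784 in DKO (-1.80 ± 0.051). The 1 rise in that list, Acaca (0.22 ± 0.080), did not pass without any 1 of the 4 libraries (adjusted p of 0.0517 to 0.174).

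Housekeeping lists leaned down. Of 28 lysosome and autophagy genes, 20 fell and 2 rose, 13 and 0 with genes that share exons removed. The lysosomal protease Ctsd read 25769 and 25625 in WT, against 10331 and 9965 in DKO (-1.34 ± 0.049). Of 31 ATF4 and endoplasmic reticulum stress genes, 20 fell and 8 rose, with the chaperone regulator Xbp1 (-1.07 ± 0.085) down and the mitochondrial folate enzyme Mthfd2 up from 514 and 529.8 in WT to 2303 and 2388 in DKO (2.17 ± 0.070). Of 20 heat shock proteins, 14 fell and 1 rose, and Hsph1 went from 4634 and 4725 in WT to 1091 and 1119.6 in DKO (-2.08 ± 0.056). The 1 rise, Hsp90aa1, did not pass without WT mixed replicate 2 (adjusted p = 0.109) or DKO mixed replicate 1 (0.0516). Of 73 cytosolic ribosomal proteins, 37 fell and 1 rose, with Rpl8 falling from 8728 and 8343 in WT to 3187 and 3022 in DKO (-1.46 ± 0.051); with genes that share exons removed 17 fell, and the 1 rise became 0 without DKO mixed replicate 1 and 3 without WT mixed replicate 2. Short genes of this kind have many near-identical copies in the genome, so their levels are uncertain.

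More matrix genes rose than fell. Of 22 fibroblast collagens, 14 rose and 4 fell (median 0.71). Col6a3 (154 and 238 in WT, 930.0 and 964 in DKO, 2.30 ± 0.16) and Col18a1 (341 and 284 in WT, against 828 and 788 in DKO, 1.37 ± 0.10) rose, the main fibrillar chain Col1a1 rose from 158 and 147 in WT to 266 and 260.3 in DKO (0.78 ± 0.21, adjusted p = 0.00516), and Col12a1 fell (-1.12 ± 0.10). Of 47 other matrix, receptor and remodelling genes, 25 rose and 15 fell. Their summed level was nevertheless lower in DKO, at 67516 and 68646 against 96692 and 99876 in WT. The collagens summed to 20110 and 20210 in WT and 22557 and 23349 in DKO. The proteoglycan Vcan (versican) rose from 363 and 448 in WT to 1897 and 1915 in DKO (2.24 ± 0.097). Sparc, which binds collagen and calcium, fell from 28729.5 and 29777 in WT to 9186 and 8717 in DKO (-1.71 ± 0.050), and Serpinh1, the collagen chaperone, from 9198 and 9694 in WT to 3713 and 3637 in DKO (-1.36 ± 0.049). Periostin lay close to the threshold. Postn read 887 and 1158 in WT, against 1259 and 1205 in DKO, a rise (0.28 ± 0.10, adjusted p = 0.0277) that did not pass in a fit of the 2 groups alone (0.0763), without the minimum value (0.0572), or without WT mixed replicate 1 (0.09, adjusted p = 0.348), DKO mixed replicate 1 (0.127) or DKO mixed replicate 2 (0.0614). Of 20 smooth muscle and myofibroblast genes, 8 rose and 7 fell; Acta2, smooth muscle actin, fell from 37230.3 and 37645 in WT to 15912 and 15702 in DKO (-1.24 ± 0.040).

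Interferon-stimulated genes rose. Of 44 measured, 36 rose and 2 fell, 1 without DKO mixed replicate 2 (median 2.27, also with the 1 gene at 0 in WT set to its lower bound). The peptide transporter Tap1 read 28.7 and 37.3 in WT, against 475 and 416 in DKO (3.72 ± 0.20) and the antiviral Ifit1 20.3 and 35.2 in WT, against 469 and 432 in DKO (4.02 ± 0.25). The guanylate-binding protein Gbp3 had no reads in WT and 95.2 and 77.8 in DKO, at least 51.2-fold higher with 3 reads over the WT group as the floor. H2-K1, a class I antigen, fell (-0.46 ± 0.11); class I genes resemble each other, so its value is uncertain. Of 18 chemokines and inflammatory mediators above the minimum (14 more fell below it), 11 rose and 2 fell. Lif, a cytokine of the interleukin 6 family, rose from 44.3 and 69.3 in WT to 380.3 and 382 in DKO (2.76 ± 0.21) and Ptgs2, the inducible cyclooxygenase, fell (-0.50 ± 0.085).

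More genes of the TGF-beta and Notch and Wnt lists rose than fell, and more IGF and imprinted genes fell than rose. Of 33 TGF-beta, BMP and activin genes, 16 rose and 9 fell. The BMP antagonists moved apart: Nog (noggin) fell from 528 and 613 in WT to 15.8 and 26.5 in DKO (-4.73 ± 0.23), and Grem1 (gremlin) rose from 2 reads in WT to 1080 in DKO, a ratio of 216 with a 95% counting interval of 59.7 to 1787. Tgfb3 (-1.32 ± 0.059) and the receptor Bmpr1b (-2.30 ± 0.11) fell. Of 39 Notch and Wnt genes, 25 rose and 8 fell (median 0.75). The receptors Notch3 and Notch1, given above, were among the rises, and the receptor Fzd2 (-1.25 ± 0.073) and the ligand Wnt4 (-2.33 ± 0.16) among the falls. Of 25 IGF, insulin and imprinted growth genes, 12 fell and 7 rose, the rises being 4 without WT mixed replicate 1. The imprinted RNAs H19 (236714 and 248281 in WT, 126793 and 111700.0 in DKO, -1.03 ± 0.057) and Meg3 (15118 and 18461 in WT, against 2808 and 2583 in DKO, -2.63 ± 0.12) fell, both sharing exons with microRNA genes, and Igf1 rose (0.45 ± 0.063).

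Hox genes changed in opposite directions within the A cluster and between clusters. Of 52 Hox, limb and positional factors, 23 fell and 16 rose (median -0.09). Hoxa10 fell from 853 and 960.4 in WT to 46.3 and 39.9 in DKO (-4.36 ± 0.13) and Hoxd10 from 526 and 488 in WT to 14.2 and 15.0 in DKO (-5.02 ± 0.25). Named after their values were seen, the other 5' genes of the A cluster fell, by 3.93 for Hoxa9, 4.25 for Hoxa11 and 2.66 for Hoxa13, as did Hoxd8 (-2.13), Hoxd9 (-5.07), Hoxd11 (-3.68), Hoxd12 (-3.77) and Hoxd13 (-2.89) of the D cluster. In the same fit Hoxa2 (2.14), Hoxa3 (0.52) and Hoxa5 (0.87) rose, and so did Hoxb6 (2.49), Hoxb7 (2.36) and Hoxb9 (2.09). Hoxa9, Hoxa11 and Hoxa3 share exons with non-coding neighbours. Hoxd13 was lower in Kdm5a KO and DKO: it read 913 and 866 in WT, 38.9 and 53.9 in Kdm5a KO, 682 and 701 in Rb1 KO and 139 and 102 in DKO. The Kdm5a KO and DKO libraries are also those that carry Xist, so Kdm5a loss and sex cannot be told apart here. Hox genes record the position along the body or limb from which a fibroblast came. Other positional factors also moved: Tbx15 fell from 9141 and 8668 in WT to 1765 and 1739 in DKO (-2.34 ± 0.060) and Prrx2 from 2114 and 2227 in WT to 386 and 355 in DKO (-2.55 ± 0.087), while the Hox cofactors Meis1 (shared exons with Gm16140, 2.73 ± 0.087) and Meis2 (2.20 ± 0.084) rose.

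Beside Mstn, Myh8, Myh1, Hoxa10, Hoxd10 and Nog, the 12 largest falls of abundant genes held 6 more. Gja5 (connexin 40), a gap junction protein, went from 23253 and 25269 in WT to 971 and 932 in DKO (-4.67 ± 0.055) and shares exons with Gpr89. The antisense Myhas, which overlaps Myh1, went from 6941 and 6773 in WT to 281 and 259 in DKO (-4.66 ± 0.085). Crct1 (2184 and 2515 in WT, 33.7 and 30.8 in DKO, -6.14 ± 0.14), the Wnt receptor Fzd9 (-5.30 ± 0.39), Slc35f1 (-4.49 ± 0.29) and Pappa2, a protease that frees IGF from its binding proteins (-4.09 ± 0.14, shared exons with 1600012P17Rik), made up the rest. These 12 were taken only from genes whose DKO and WT libraries did not overlap, which held for 84.4% of all genes.

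Markers of other cell types changed in both directions, and many were below the minimum. Of 12 adipocyte markers, 9 fell below the minimum and 2 of the 3 measured fell, and the summed level of the measured genes was 613 and 664 in WT and 264 and 239 in DKO. Among 12 epithelial markers, 9 were below the minimum, 1 fell and 2 did not pass; the sums were 159 and 108 in WT and 44.2 and 40.7 in DKO. Among macrophage and blood markers, 9 of 14 were measured, 3 rose and 2 fell, with sums of 860.3 and 959 in WT and 497 and 478 in DKO. The median change of this list was 0.71, but -0.68 with only the libraries of the 2 groups compared. The macrophage receptor Csf1r read 51.4 and 78.9 in WT, against 9.47 and 11.5 in DKO, and does not stand for the list. Endothelial markers went the other way: 8 of 14 were measured and 7 rose, with sums of 511 and 399 in WT and 1512 and 1517 in DKO. The endothelial cadherin Cdh5 read 2.39 and 3.20 in WT, against 97.3 and 102 in DKO (4.74 ± 0.52) and the factor Erg 33.5 and 17.1 in WT, against 478 and 446 in DKO (4.21 ± 0.31). Cartilage and bone markers (8 of 15 measured) gave 5 rises and 3 that did not pass, led by the matrix protein Matn3 (23.9 and 11.7 in WT, 785 and 1003 in DKO, 5.64 ± 0.32), with sums of 665 and 593 in WT and 1888 and 2164 in DKO. Neural markers (6 of 12 measured off the X) gave 4 rises and 1 fall, with sums of 16847 and 17907 in WT and 17309.5 and 17603 in DKO. The part of these cell types in the results above was not tested. The skeletal muscle markers Myh3, Ckm and Myog were present in all 8 mixed libraries, and the fibroblast collagen Col1a1 likewise.

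Compared with the Rb1 KO, the DKO cultures had more RNA of most contractile, calcium and energy genes of muscle and less RNA of most matrix genes. DKO and Rb1 KO differed in 7818 of the 16544 genes (47.3%), 3798 higher (23%) and 4020 lower (24.3%) in DKO. Sex differs here too, since the Rb1 KO libraries carry Y-linked transcripts. The direct test put 13 of 17 myosins (median 1.99), 18 of 20 thin filament genes (1.53), 22 of 25 Z-disc genes (1.64), 22 of 24 calcium genes (1.57) and 19 of 23 energy genes (1.70) higher in DKO than in Rb1 KO. The regulators did not lean this way: of 23 myogenic regulators, 7 were higher and 9 lower (median -0.01). Of 19 adhesion and fusion genes, 9 were higher and 7 lower (median 0.32). Myh3 averaged 4531 ± 207 in Rb1 KO, 20800.4 ± 570.1 in DKO and 76998 ± 122 in WT (SD, n = 2), and DKO exceeded Rb1 KO by 2.20 ± 0.051 (adjusted p = 1.39e-11). Des read 1161 and 1254 in Rb1 KO, so the DKO value above was 2.58 ± 0.051 higher. Myh1 did not share in this: it read 582 and 558 in Rb1 KO, and DKO differed by -0.02 ± 0.064 (adjusted p = 0.862). Sln (21.6 and 15.4 in Rb1 KO, 5.88 ± 0.18), Pde1c, a calcium-dependent phosphodiesterase (101 and 78.7, 4.64 ± 0.12), Csf2rb2 (4.59 ± 0.13), Mybpc1, the slow myosin-binding protein (4.45 ± 0.16), the glycogen-targeting subunit Ppp1r3a (4.37 ± 0.10) and Ky, a protein of muscle maintenance (4.34 ± 0.25), were the 6 furthest above Rb1 KO.

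Matrix genes showed the reverse order. Of 22 collagens 19 were lower in DKO than in Rb1 KO and 1 higher (median -1.60), and of 47 other matrix genes 42 were lower and 5 did not pass. Postn read 19721 and 20093 in Rb1 KO, and DKO was lower (-4.01 ± 0.10, adjusted p = 3.25e-11). Thbs1 (thrombospondin 1) read 13982 and 15561 in Rb1 KO, 1202 and 1486 in WT, against 660.2 and 686 in DKO, below both (-0.99 ± 0.098 against WT, -4.45 ± 0.098 against Rb1 KO). The other genes furthest below Rb1 KO were Rprl3, a small structured RNA (3740.3 and 4157 in Rb1 KO, 4.21 and 4.74 in DKO), Anxa8 (-4.87 ± 0.28), Itgbl1 (-4.69 ± 0.13), the potassium channel Kcnd2 (-4.50 ± 0.30) and the IGF-releasing protease Pappa (-4.31 ± 0.23). Hox and limb factors were also lower, 35 of 52 against 7 higher (median -1.19), Hoxa10 among them (-3.33 ± 0.13).

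Between DKO and Rb1 KO, the median change of replication genes was near 0, and more G2/M genes were higher than lower. Of 54 replication genes, 13 were higher and 6 lower in DKO than in Rb1 KO (median 0.05), and Mcm6 read 2458 and 2250.1 in Rb1 KO (0.30 ± 0.095, adjusted p = 0.0206). Of 76 G2/M genes, 37 were higher and 3 lower (median 0.66), with Mki67 at 2479 and 2376 in Rb1 KO (1.29 ± 0.43, adjusted p = 0.0251). Of 32 p53 targets and apoptosis genes, 7 were higher and 16 lower in DKO than in Rb1 KO (median -0.28). Against that lean, the killer gene Pmaip1 read 2607 and 2399 in Rb1 KO, and DKO was higher by 1.68 ± 0.063. Cdkn1c read 4768 and 4559 in Rb1 KO, and DKO was higher by 2.09 ± 0.044. Against the Kdm5a KO, which shares its sex with DKO, 11120 of the 16544 genes differed (67.2%), 5606 higher (33.9%) and 5514 lower (33.3%), and of 54 replication genes 52 were higher and 2 did not pass. Contractile, calcium and energy genes of muscle were mostly lower in DKO than in Kdm5a KO: 12 of 17 myosins (median -1.61), 12 of 20 thin filament genes (-0.55), 20 of 25 Z-disc genes (-0.88), 14 of 24 calcium genes (-0.37) and 18 of 23 energy genes (-0.69) were lower, while 1 myosin, 3 thin filament genes and 5 calcium genes were higher. Of 23 myogenic regulators, 13 were higher and 7 lower. Myh3 read 99141 and 107427 in Kdm5a KO, and DKO was lower (-2.31 ± 0.051, adjusted p = 4.3e-12). Ckm (1293 and 883 in Kdm5a KO) did not pass (0.16 ± 0.14, adjusted p = 0.340), and Myog (8748 and 8969) was higher in DKO (0.56 ± 0.057). The comparisons with WT, Rb1 KO and Kdm5a KO share the DKO libraries, so the plot of list medians sets the 3 genotypes side by side and no overlap between them is given.

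**Figure D4:**
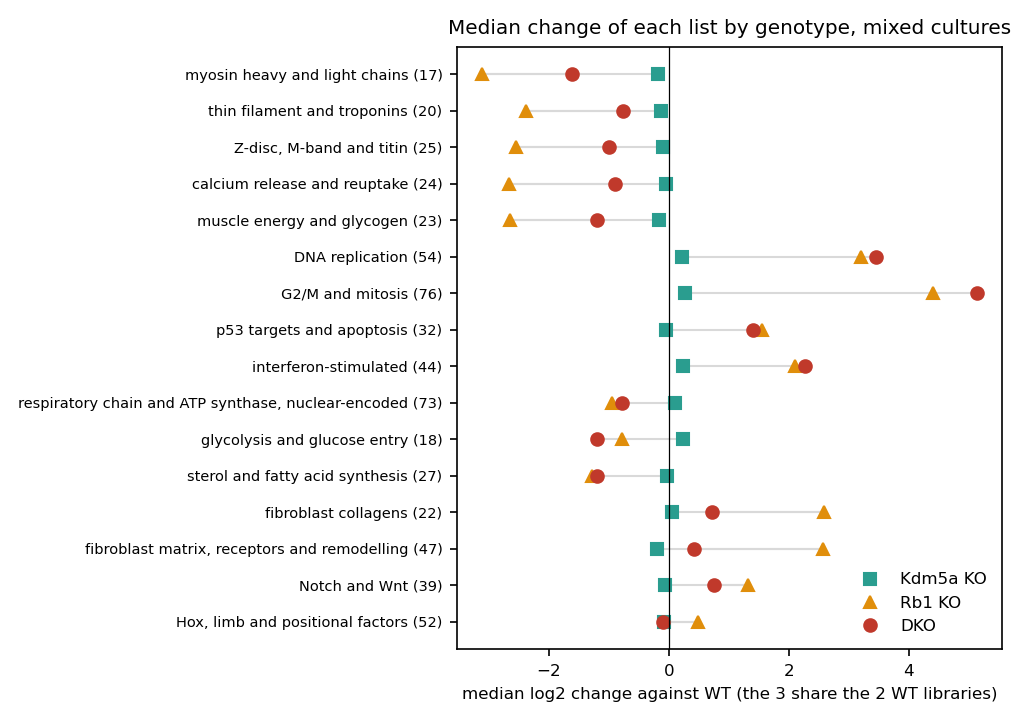
Median change against WT (log2, horizontal) of the measured members of 16 gene lists (rows, number measured in brackets) in the Kdm5a KO (squares), the Rb1 KO (triangles) and the DKO (circles), all against the same 2 WT libraries. The DKO circle lies between the Rb1 KO triangle and 0 for the 5 muscle lists and the 2 matrix lists, and beyond the triangle for DNA replication and for G2/M and mitosis.

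Purified myotubes of the same 2 genotypes were in libraries that none of the comparisons above used. They had been separated by size, left 24 h to recover, enriched for poly(A) RNA (1.5 µg used), amplified by 15 cycles of PCR and read for 36 bases, so levels are not comparable with the mixed libraries. Of 15325 of the genes that could be tested there, 6074 (39.6%) passed, 3269 as rises (21.3%) and 2805 as falls (18.3%). That count rests on single libraries: it was 1771 and 1923 without the first and second WT purified libraries, and 10768 and 9611 without the first and second DKO purified libraries. Of the 5269 mixed-culture rises tested, 2682 also rose in purified myotubes (50.9% of the mixed rises and 82.0% of the purified ones) and 159 fell. Of the 5392 falls, 2100 also fell (38.9% and 74.9%) and 137 rose.

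Among the 15 genes followed in every comparison, the cell-cycle genes rose in both kinds of culture. Mcm6 read 331 and 441 in WT myotubes and 3992 and 4082 in DKO myotubes (3.40 ± 0.22), Mki67 26.0 and 28.6 in WT and 8141 and 4018 in DKO (7.66 ± 0.38), and Ccnb1 0 in both WT libraries and 634 and 537 in DKO. Myh3 fell in both (163792 and 154839 in WT, 48862 and 34514 in DKO, -1.96 ± 0.29, adjusted p = 0.00681). Mstn, at 15306 and 14435 in WT, was at 0 in the first DKO library and rested on 2.09 in the second. Ckm went the other way, from 463 and 432 in WT to 2306 and 2298 in DKO (2.36 ± 0.18, adjusted p = 0.00160). Kdm5a, at 3033 and 2775 in WT and 787 and 614 in DKO, fell by 2.06, more than in the mixed cultures. Myod1 (12978 and 13074 in WT, 7443 and 21379 in DKO, -0.05 ± 0.51, adjusted p = 0.948) and Mymk (23499 and 23260.1 in WT and 12128 and 30894 in DKO, -0.27 ± 0.47, adjusted p = 0.664) did not pass, and for both the 2 DKO libraries fell on either side of WT. Ppargc1a rose here too (61.4 and 29.8 in WT and 171 and 205 in DKO, 2.10 ± 0.43).

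**Figure D5:**
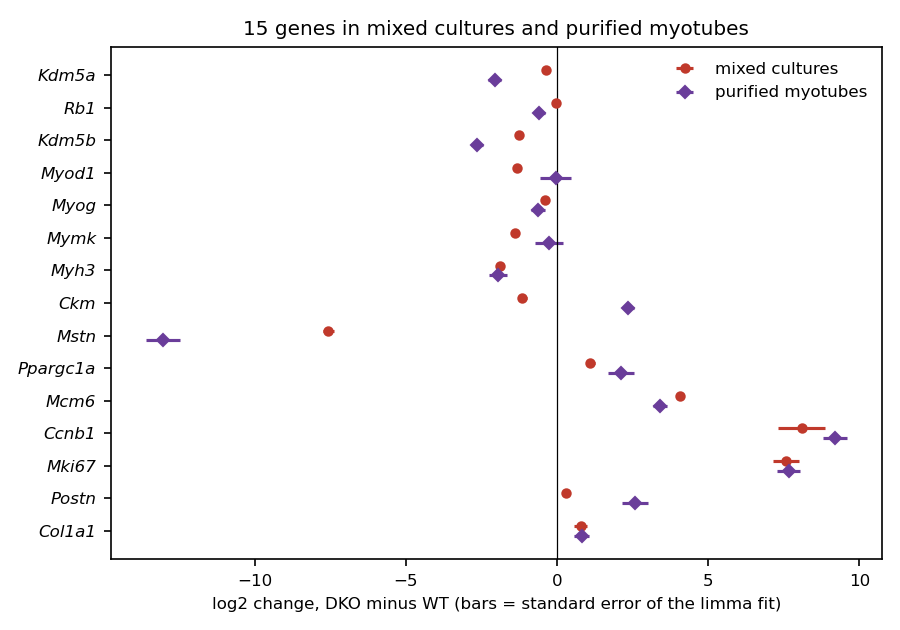
Change between DKO and WT (log2, horizontal; bars are standard errors of the limma fit) of 15 genes in mixed cultures (circles) and purified myotubes (diamonds), each fitted on its own libraries. Ckm lies on opposite sides of 0; for Mstn and Ccnb1 the purified values rest on libraries at or near 0 and depend on the 1 added before taking logs.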

How the data were processed

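Poly(A) or ribosome-depleted RNA was sequenced from 12 libraries in 6 groups of 2. Per the submitters' processing notes TopHat 1.2.0, mm9 and DESeq were used; the counter, the annotation release and the DESeq version are not given in the sources used here. The deposited values (signal, reads divided by a size factor per library) gave back whole reads in 100% of values within 0.01, and depth is the sum of those reads. The values were tested with limma 3.58.1 in R 4.3.3 on log2(value + 1) with an intensity trend, in 1 fit of the 8 mixed libraries over genes with a mean of at least 10, two-sided, with Benjamini-Hochberg adjustment over all genes tested and a threshold of 0.05. Purified libraries were fitted alone, and the difference between purified and mixed effects in 1 fit of all 12. edgeR 4.0.16 and DESeq2 1.42.0 on the recovered reads were alternatives. Only the limma fit of DKO against WT in mixed cultures was run on simulated data, with far fewer changed genes than were called here. That run does not speak to the scaling or the error rate in these data.

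Symbols came from GENCODE M21 by Ensembl identifier (30983 genes, 85.5%), which is a later build than mm9, so no gene coordinates are printed from the deposited table. In that annotation 4300 of the genes described share exons with another. Promoters came from RefSeq (GRCm38.p6). Counting by strand is not stated, so reads of overlapping genes cannot be told apart. The members and the 45 gene lists were chosen with earlier results of these data known. Genes named are 15 followed in every comparison, and the 12 largest rises and 12 largest falls with a group mean of at least 500. Up to 4 genes of smallest p per list plus up to 2 against its direction were also named, and 6 genes each way against the Rb1 KO. The largest rises and falls came only from genes that passed and whose 2 groups of libraries did not overlap. The same held for the 6 each way against the Rb1 KO. E2f1 to E2f4, Myf6, Mymx and the further Hox genes lie outside these rules and were chosen after their values were seen. Intervals and floors cover counting error only. Some genes are not reported here.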

Additional observations from a re-analysis of the deposited data

Results flagged for a closer look

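For 7 of the 15 genes followed in every comparison, the difference between DKO and WT itself differed between purified myotubes and mixed cultures, by limma on all 12 libraries with Benjamini-Hochberg adjustment. The share of all genes that differed in this way is not given, so the count does not set these 15 apart. Ckm, the muscle creatine kinase, had the largest such difference upward: its DKO effect was 3.51 ± 0.23 higher in purified myotubes (adjusted p = 1.6e-05), with 2 of 2 purified DKO libraries (2306 and 2298) above both WT libraries (463 and 432). The effect on Postn was 2.29 ± 0.34 higher (adjusted p = 0.00128), from 22.3 and 12.4 in WT myotubes and 119 and 91.0 in DKO myotubes. The other 5 effects were lower in purified myotubes. Mstn differed by -5.48 ± 0.60 (adjusted p = 0.000209), but its purified DKO libraries read 0 and 2.09, so the size depends on the 1 added before taking logs. Kdm5a differed by -1.68 ± 0.20 (adjusted p = 0.000309) and read 3033 and 2775 in WT myotubes and 787 and 614 in DKO myotubes. Kdm5b differed by -1.39 ± 0.16 (adjusted p = 0.000332), Rb1 by -0.55 ± 0.14 (adjusted p = 0.0162) and Mcm6 by -0.67 ± 0.21 (adjusted p = 0.0409). Purification, RNA selection, read length and recovery time all differ between these 2 kinds of library and cannot be told apart.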

How the results depend on the processing

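Over 16 alternatives, rises against WT numbered 4268 to 6539 and falls 4047 to 5672, all within 1.5 times the reported counts, and no called gene was called with the opposite sign. Among the values of the 253 named genes, 3950 of 3983 kept direction and side of the threshold, 29 fell below it and 4 passed it. The purified count moved most, from 1771 to 10768 when 1 library was left out. Median changes of 2 marker lists changed sign: macrophage and blood markers gave -0.68 with only the libraries of the 2 groups compared, and epithelial markers, with 3 genes measured, gave -0.65 with edgeR, -0.69 with DESeq2, and values from -1.64 to 1.58 when 1 library was left out (-1.64 without WT mixed replicate 2, -0.16 without DKO mixed replicate 2); the cause was not tested. Without the minimum value the median of all genes moved to 0.18. The lowest counts, 4268 rises and 4047 falls, came with genes that share exons removed, which left 12244 to test. Replicate numbers are shared between groups, but same-numbered libraries did not deviate together (correlation -0.0327 for WT and DKO), so the numbers do not pair them; with the replicate block 5599 genes rose and 5588 fell. With 2 libraries a group, small changes and genes with few reads are the least certain.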
